A study of Mus musculus with 6 samples.

Results

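Endothelial genes were followed across 6 libraries of sorted Nestin-GFP-positive cells from the skin of newborn mice. They are a list of 36 genes out of the 37991 gene rows in each count file, found by matching each symbol to its Ensembl identifier. Of these, 31 are listed as blood endothelial genes and 5 (Prox1, Flt4, Mmrn1, Pdpn and Reln) stand for lymphatic endothelium. The 31 include genes of endothelium in general, such as Pecam1, Cdh5, Tie1 and Kdr, and are called blood genes as a class name only. The 3 mutant libraries came from Nes-GFP;Nes-Cre;PDGFRα+/[S]D842V mice, which carried the GFP reporter, a Nestin-driven Cre recombinase and 1 Pdgfra allele with the constitutively active change D842V. The 3 control libraries came from Nes-GFP mice, whose labels give the reporter alone, so recombinase and allele cannot be told apart. All mice were 3 days old, and every library was made from GFP-positive single cells sorted from dermis with its attached subcutaneous white fat, after removal of the epidermis and of hair follicles. The labels give 3 mice and 3 RNA samples per genotype and name no strain, sex or batch. The mark [S] is not explained in them.

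Endothelial cells line blood and lymph vessels. They are held together by junction proteins such as VE-cadherin and claudins, they respond to VEGF, angiopoietin and apelin through surface receptors, and their identity is set by ETS and SOX transcription factors. Lymphatic endothelium arises from veins when Prox1 is switched on, and it depends on the VEGF-C receptor encoded by Flt4. Nestin-GFP reports activity of Nestin regulatory sequence, which is known in pericytes and other progenitors and also in growing endothelium. In libraries of many cells, more endothelial cells and more transcript per endothelial cell cannot be told apart.

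Levels are given as CPM, counts relative to the TMM-normalized library size. Gene counts ran from 15110824 to 18792939 in the mutant libraries and from 11912469 to 15839701 in the controls, and a count of 0 allows up to between 0.16 and 0.252 CPM, for counting error only. Every member had reads in every library, and all 36 passed the filter on low counts. The least abundant was Tal1, at 1.34, 1.04 and 1.11 CPM in mutant libraries 1 to 3 and 1.02, 0.839 and 1.02 CPM in control libraries 1 to 3. Pdgfra, the targeted gene, had 369, 345 and 359 CPM in mutant libraries and 857, 820 and 856 CPM in controls. Its log2 fold change was -1.24 (edgeR adjusted p = 2.75e-06). Nes, the gene behind the reporter, had 78.99, 74.3 and 99.6 CPM in mutant libraries and 79.2, 67.9 and 76.1 CPM in controls (log2 fold change 0.18, edgeR adjusted p = 0.28).

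In mutant cells 10 of the 31 blood endothelial genes rose, among them the receptor genes Tek, Kdr, Tie1 and Aplnr, and none was called lower. A gene was called when its p from edgeR's quasi-likelihood test, adjusted over all 15035 tested genes by Benjamini-Hochberg, was under 0.05. The 10 blood genes called higher stand against 8.63% of all genes tested and the 0 called lower against 9.13%, with 17.8% of all genes called in either direction. No blood gene was lower at an unadjusted p under 0.05 (0 of 31), and DESeq2 and limma-voom each called 12 higher and 0 lower, against 6.85% and 8.35% of all genes called higher by these tools. The median log2 fold change of the 31 was 0.51, and that of all genes tested was 0.01. Estimates were above 0 for 28 of the 31, against 50.8% of all genes tested. In 19 of the 31 all mutant libraries were above all controls, a pattern found in 19.2% of all genes tested. DESeq2 size factors called 9 blood genes (8.33% of all genes), total count scaling 10 (8.21%) and no filter on low counts 14 (6.84%), while replicate number as a block gave 8.83% of all genes. The number called was 5 without control library 3, where 4.44% of all genes were called higher. It was 8 and 9 without control libraries 1 and 2 (7.83% and 5.08% of all genes), and 7, 13 and 7 without mutant libraries 1, 2 and 3 (5.76%, 6.3% and 4.33%).

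**Figure D1:**
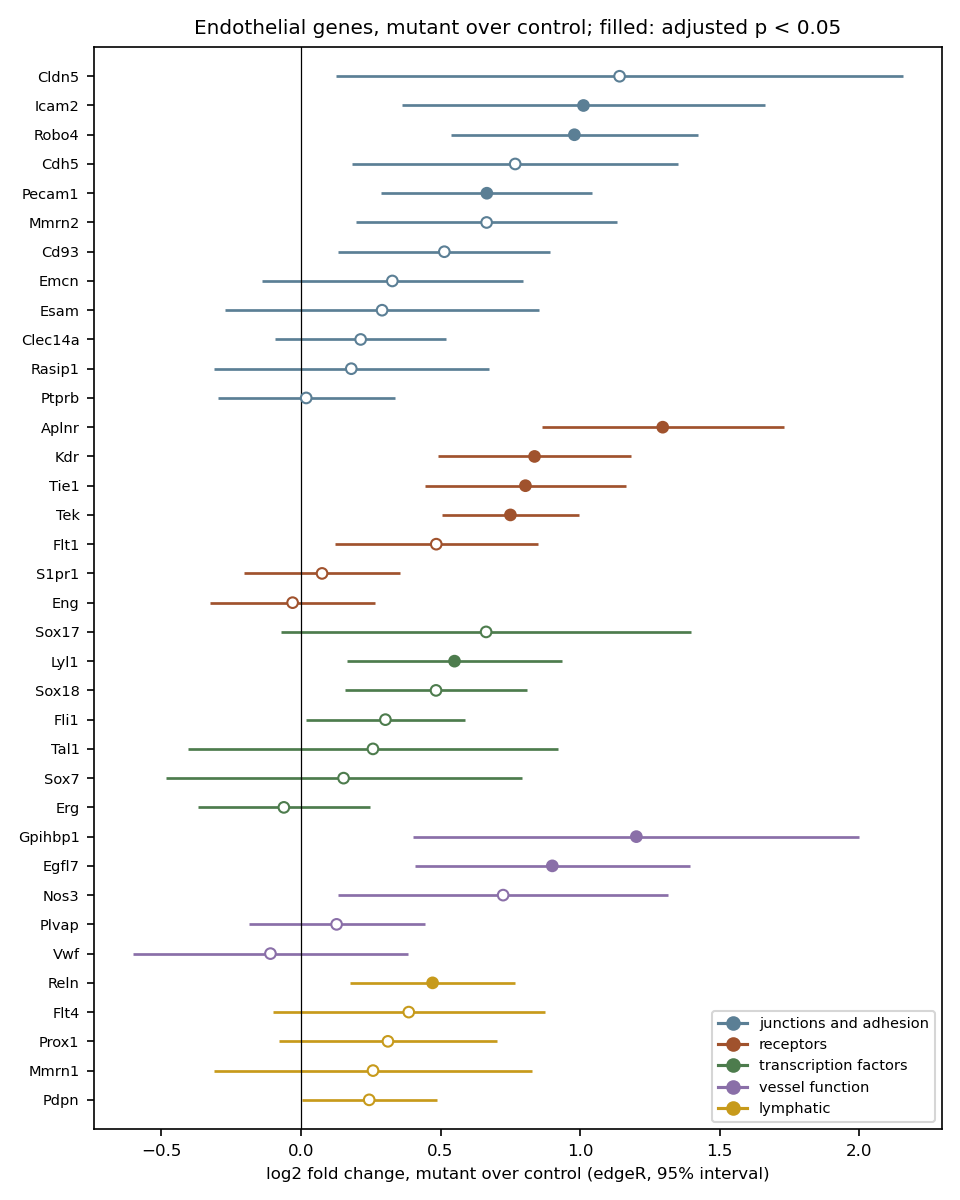
Log2 fold change of each of the 36 endothelial genes, mutant over control, with its 95% interval from edgeR, 3 libraries per genotype, grouped by role. Filled points have an adjusted p under 0.05. All 11 filled points lie right of 0, and Eng, Erg and Vwf are the 3 genes with an estimate below 0.

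Of 7 receptors 4 were called higher, against 8.63% of all genes tested. Tek and Aplnr had the smallest adjusted p-values of the 36 genes. Tek, the angiopoietin receptor, had 43.0, 41.3 and 48.8 CPM in mutant libraries and 23.0, 30.96 and 25.5 CPM in controls. Its log2 fold change was 0.75 (95% interval 0.51 to 1.00, edgeR adjusted p = 0.00144). Tie1, the orphan receptor that pairs with the Tek product, had 14.6, 14.9 and 21.9 CPM in mutant libraries and 9.61, 10.9 and 9.09 CPM in controls. It rose by 0.80 on the log2 scale (edgeR adjusted p = 0.00791). In both genes every mutant library stood above every control.

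Kdr, the main signalling receptor for VEGF-A, had 54.7, 56.0 and 66.2 CPM in mutant libraries and 26.2, 40.9 and 32.6 CPM in controls. The log2 fold change was 0.84 (95% interval 0.49 to 1.18, edgeR adjusted p = 0.00832). Aplnr, the apelin receptor of veins and sprouting capillaries, had 15.03, 10.8 and 19.1 CPM in mutant libraries and 6.72, 5.45 and 6.08 CPM in controls. It rose by 1.296 on the log2 scale (95% interval 0.86 to 1.73, edgeR adjusted p = 0.0021), the highest estimate among the 36 genes, and the groups of both receptors did not overlap. Flt1, a VEGF receptor that acts largely as a decoy, had 19.8, 17.9 and 27.3 CPM in mutant libraries and 13.4, 15.4 and 17.7 CPM in controls. Its groups did not overlap either, yet it was not called (log2 fold change 0.48, edgeR adjusted p = 0.0667). It was called by DESeq2 (adjusted p = 0.0483), with no filter and without mutant library 2.

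The other receptors of the group stayed close to 0. Eng, the TGF-beta co-receptor endoglin, which stromal cells also make, had 92.9, 78.99 and 98.0 CPM in mutant libraries and 111, 82.3 and 81.8 CPM in controls. Its log2 fold change was -0.03 (95% interval -0.33 to 0.27, edgeR adjusted p = 0.901). S1pr1, the sphingosine-1-phosphate receptor, had a log2 fold change of 0.08 (95% interval -0.20 to 0.35). The median log2 fold change of the 7 receptors was 0.75. These 4, Tek, Tie1, Kdr and Aplnr, kept their calls in all 12 alternatives tried.

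**Figure D2:**
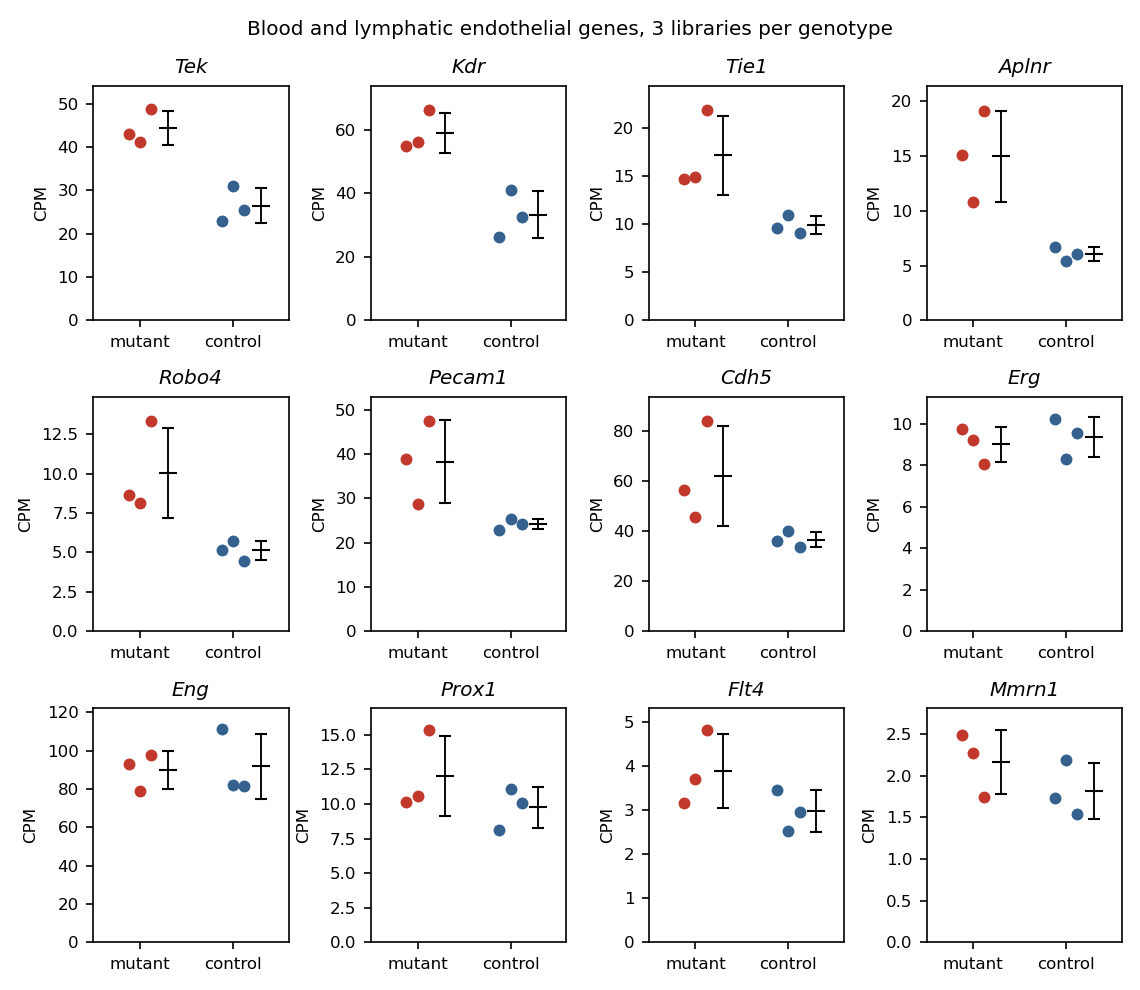
CPM of 12 endothelial genes in each of 3 mutant (red, left) and 3 control (blue, right) libraries, with mean and SD (n = 3 per genotype) beside the points, each axis starting at 0. The points of Tek, Kdr, Tie1, Aplnr, Robo4, Pecam1 and Cdh5 do not overlap between genotypes, and those of Erg, Eng, Prox1, Flt4 and Mmrn1 do.

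Junction and adhesion genes were all estimated above 0, but 3 of 12 were called higher, against 8.63% of all genes tested. Robo4, an endothelial relative of the Slit receptors that stabilises vessels, had 8.66, 8.13 and 13.3 CPM in mutant libraries and 5.19, 5.71 and 4.48 CPM in controls. It rose by 0.98 on the log2 scale (95% interval 0.54 to 1.42, edgeR adjusted p = 0.00783) and was called in all 12 alternatives. Pecam1, the platelet and endothelial adhesion molecule, had 38.9, 28.7 and 47.5 CPM in mutant libraries and 23.0, 25.4 and 24.3 CPM in controls. It rose by 0.67 (edgeR adjusted p = 0.0271), a call not held without any 1 control library or without mutant library 1 (adjusted p up to 0.104). Icam2, an adhesion molecule of resting endothelium, had 2.01, 2.14 and 3.43 CPM in mutant libraries and 1.15, 1.59 and 1.09 CPM in controls. It rose by 1.01 (edgeR adjusted p = 0.0355), a call lost with DESeq2 and without control library 1 or 3 or mutant library 3 (adjusted p up to 0.18).

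The defining junction genes were above all controls in every mutant library but varied among mutant libraries. Cdh5, which encodes VE-cadherin, had 56.6, 45.7 and 84.3 CPM in mutant libraries and 36.1, 40.1 and 33.9 CPM in controls. It was not called (log2 fold change 0.77, 95% interval 0.18 to 1.35, edgeR adjusted p = 0.0802), and was called by DESeq2 and limma-voom and without mutant library 2 or 3. Cldn5, the tight junction claudin, had 11.9, 13.6 and 24.8 CPM in mutant libraries and 5.44, 11.2 and 6.53 CPM in controls (log2 fold change 1.14, 95% interval 0.12 to 2.16, edgeR adjusted p = 0.118), and was called by limma-voom alone. Mutant library 3 was the highest library for all 12 genes of the group.

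Cd93, a lectin receptor of sprouting endothelium, and Mmrn2, its matrix partner, had log2 fold changes of 0.51 and 0.66, with groups that did not overlap and edgeR adjusted p-values of 0.0658 and 0.0502. Cd93 was called by DESeq2, with no filter and without mutant library 2, and Mmrn2 with no filter and without control library 1 or mutant library 2. The remaining 5 genes were not called in any alternative. Ptprb, the vascular phosphatase that acts on Tek and VE-cadherin, had 13.8, 13.003 and 18.3 CPM in mutant libraries and 15.2, 16.4 and 13.1 CPM in controls (log2 fold change 0.02, 95% interval -0.30 to 0.34). Emcn (endomucin, 0.33), Esam (a junction molecule of endothelium and platelets, 0.29), Clec14a (an endothelial lectin, 0.21) and Rasip1 (a Rap1 effector of lumen formation, 0.18) had intervals that included 0. The group's median was 0.59, and 0.36 without mutant library 3. The number called was 1 without control library 3 and 6 without mutant library 2, where 4.44% and 6.3% of all genes were called higher.

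Of the 7 transcription factors listed for endothelium 1 was called higher, against 8.63% of all genes tested. Erg, an ETS factor that maintains junction genes, had 9.73, 9.23 and 8.08 CPM in mutant libraries and 10.2, 8.31 and 9.54 CPM in controls. Its log2 fold change was -0.06 (95% interval -0.37 to 0.25, edgeR adjusted p = 0.801), and that interval does not reach the interval of Tek. The difference between members was not tested. Sox18, a SOX factor of vascular and lymphatic development, had 105, 115 and 123 CPM in mutant libraries and 66.6, 102 and 78.2 CPM in controls. Its groups did not overlap, and it fell short of a call (log2 fold change 0.48, edgeR adjusted p = 0.0507). It was called in 6 of 12 alternatives, among them without control library 1 or 2. In CPM per kb of exon, Sox18 stood at 70.7 in mutant and 50.7 in control libraries, against 14.8 and 8.74 for Cdh5. Which cells made Sox18 was not tested.

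Lyl1, a basic helix-loop-helix factor of blood and endothelium, had 5.77, 5.01 and 4.96 CPM in mutant libraries and 3.71, 3.27 and 3.71 CPM in controls. It was the single factor of 7 called (log2 fold change 0.55, edgeR adjusted p = 0.0496). That call held in 1 of 12 alternatives and in none that left out a library (adjusted p up to 0.158), and its exons overlap those of Nfix on the opposite strand. Fli1, the ETS relative of Erg, had a log2 fold change of 0.30 with groups that did not overlap (edgeR adjusted p = 0.13). Tal1, a factor of the same family as Lyl1, stood at 0.26 (edgeR adjusted p = 0.598). Its groups were parted only by 1.04 CPM in mutant library 2 against 1.02 CPM in control libraries 1 and 3, each from 16 counts. Sox17, a factor of arteries, and Sox7, its early vascular relative, stood at 0.66 and 0.15 with overlapping groups. The median of the 7 factors was 0.30.

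Of 5 genes for specialised vessel functions 2 were called higher, against 8.63% of all genes tested. Gpihbp1, which carries lipoprotein lipase to the lumen of capillaries, had 5.64, 5.20 and 9.08 CPM in mutant libraries and 2.63, 4.53 and 1.73 CPM in controls. It rose by 1.20 on the log2 scale (95% interval 0.40 to 2.00, edgeR adjusted p = 0.0473), a call not held without control library 1 or 3 and without any 1 mutant library (adjusted p up to 0.119). Egfl7, a secreted regulator of vascular tube formation, had 6.91, 6.18 and 10.1 CPM in mutant libraries and 4.42, 4.95 and 3.20 CPM in controls. It rose by 0.90 (edgeR adjusted p = 0.0185), a call not held without control library 3 or mutant library 3 (adjusted p up to 0.0851).

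Nos3, the endothelial nitric oxide synthase, had 3.09, 2.54 and 5.02 CPM in mutant libraries and 2.18, 2.35 and 1.98 CPM in controls. It was not called (log2 fold change 0.72, edgeR adjusted p = 0.085), and was called with no filter and without mutant library 2. Plvap, which forms the diaphragms of endothelial pores, was at 0.13 (95% interval -0.19 to 0.44). Vwf, the clotting factor stored in endothelium and platelets, had 9.60, 7.28 and 9.87 CPM in mutant libraries and 13.1, 8.81 and 6.98 CPM in controls, the lowest estimate of the 36 (-0.11, 95% interval -0.60 to 0.38). The median of the 5 genes was 0.72, and 0.38 without mutant library 3. No gene of the 5 was called without control library 3 or without mutant library 3, where 4.44% and 4.33% of all genes were called higher. Egfl7 and Nos3, together with Eng, Rasip1, Sox17, Prox1 and Reln, share exon sequence with another annotated gene, as Lyl1 does, so their reads are uncertain.

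Promoters are shown for the called receptor, adhesion, vessel function and lymphatic gene with the smallest adjusted p, as the sequence from 250 bases before to 50 after the gene start. They come from RefSeq on GRCm38.p6, a later build than the mm9 of the counts, and are written 5′ to 3′ on the gene's strand. Tek is at chr4:94739039-94739338 (plus strand), Robo4 at chr9:37401722-37402021 (plus), Egfl7 at chr2:26580833-26581132 (plus, the first of 3 starts listed) and Reln at chr5:22344656-22344955 (minus). Capitals mark AGGAAG or its reverse CTTCCT, a core that ETS factors such as Erg and Fli1 bind.
Tek: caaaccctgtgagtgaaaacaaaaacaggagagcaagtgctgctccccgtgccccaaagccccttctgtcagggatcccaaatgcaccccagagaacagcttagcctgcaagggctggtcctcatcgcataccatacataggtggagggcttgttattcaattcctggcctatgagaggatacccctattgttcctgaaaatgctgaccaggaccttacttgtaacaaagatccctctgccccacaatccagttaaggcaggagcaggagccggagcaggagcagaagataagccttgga
Robo4: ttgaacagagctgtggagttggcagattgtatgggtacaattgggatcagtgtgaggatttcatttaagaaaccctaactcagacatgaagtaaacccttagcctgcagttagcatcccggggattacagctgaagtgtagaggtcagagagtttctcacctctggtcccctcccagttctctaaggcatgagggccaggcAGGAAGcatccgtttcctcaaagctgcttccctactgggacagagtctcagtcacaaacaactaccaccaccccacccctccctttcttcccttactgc
Egfl7: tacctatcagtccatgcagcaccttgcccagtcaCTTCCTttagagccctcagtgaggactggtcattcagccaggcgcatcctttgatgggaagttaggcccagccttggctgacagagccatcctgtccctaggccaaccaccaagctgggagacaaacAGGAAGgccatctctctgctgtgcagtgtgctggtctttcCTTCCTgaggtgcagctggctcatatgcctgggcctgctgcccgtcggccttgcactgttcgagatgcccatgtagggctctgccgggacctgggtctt
Reln: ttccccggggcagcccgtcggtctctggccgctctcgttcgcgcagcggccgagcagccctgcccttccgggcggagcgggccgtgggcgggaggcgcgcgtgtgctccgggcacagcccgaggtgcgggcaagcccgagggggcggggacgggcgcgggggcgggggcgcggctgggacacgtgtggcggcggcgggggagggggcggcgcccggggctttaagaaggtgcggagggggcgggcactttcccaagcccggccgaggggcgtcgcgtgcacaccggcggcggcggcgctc
Robo4 held 1 match, 49 bases before the gene start, and Egfl7 held 3, while the letters were not found in the windows of Tek and Reln. The GC content was 80.7% in Reln, the lymphatic-class gene, and 52% in Tek. Across the 25 promoters listed for 19 of the 36 genes, 36% held the core, against 35.4% of all 32851 promoters of the same length. The other cores, searched on both strands and counted separately from the ETS core whether or not matches overlap, were ACAATG for SOX factors (8% against 12.6%), AGATAA for GATA factors (12% against 11.2%) and the E-box CAGCTG (8% against 16.3%).

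All 5 lymphatic genes were estimated above 0, and 1 was called higher, Reln, against 8.63% of all genes tested. The defining genes Prox1, Flt4 and Mmrn1 were not called. Prox1, the master factor of lymphatic identity, had 10.1, 10.6 and 15.3 CPM in mutant libraries and 8.13, 11.1 and 10.1 CPM in controls (log2 fold change 0.31, 95% interval -0.08 to 0.70, edgeR adjusted p = 0.251). Flt4, the receptor for VEGF-C and VEGF-D, had 3.15, 3.71 and 4.80 CPM in mutant libraries and 3.46, 2.52 and 2.94 CPM in controls (0.39, 95% interval -0.10 to 0.87, edgeR adjusted p = 0.254). Mmrn1, a multimerin of lymphatic endothelium and platelets, had 2.48, 2.27 and 1.74 CPM in mutant libraries and 1.73, 2.18 and 1.54 CPM in controls (0.26, edgeR adjusted p = 0.531). The groups of all 3 genes overlapped, and no alternative called any of them.

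Reln, which encodes a secreted glycoprotein made by lymphatic vessels and by neurons, was the called gene of the 5. It had 24.2, 21.3 and 30.0 CPM in mutant libraries and 18.4, 20.2 and 16.1 CPM in controls (log2 fold change 0.47, 95% interval 0.18 to 0.77, edgeR adjusted p = 0.0333). The call was not held without control library 3 and without mutant library 1 or 3 (edgeR adjusted p up to 0.146). No lymphatic gene was called there, against 4.44%, 5.76% and 4.33% of all genes called higher. Pdpn, podoplanin, which fibroblasts and keratinocytes also make, had 39.7, 35.4 and 39.1 CPM in mutant libraries and 38.1, 28.3 and 29.9 CPM in controls (0.24, edgeR adjusted p = 0.148). It was called without control library 1, where 2 of the 5 were called higher, against 7.83% of all genes. DESeq2 and limma-voom each called 1 of the 5 higher, and no lymphatic gene was called lower by any of the tools (0 of 5, also at an unadjusted p under 0.05).

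Set against each other, the blood and lymphatic classes gave a contrast whose size depended on the genes summed. The 31 blood genes together reached 665, 607 and 822 CPM in mutant libraries and 503, 540 and 488 CPM in controls, a ratio of means of 1.37. The 5 lymphatic genes reached 79.7, 73.3 and 91.0 CPM in mutant libraries and 69.9, 64.3 and 60.5 CPM in controls, a ratio of 1.25. In neither class did the genotypes overlap. The largest parts of the blood sum were Sox18 (mean 114 CPM in mutant and 82.1 in control libraries) and Eng (90.0 and 91.9). Those of the lymphatic sum were Pdpn (38.1 and 32.1) and Reln (25.2 and 18.2). The sums thus rest largely on a few genes, among them Eng and Pdpn, which other cells also make. The blood sum also holds genes of endothelium in general, so the sums do not separate blood from lymphatic vessels. The sum of blood over lymphatic genes was 8.35, 8.28 and 9.03 in mutant libraries and 7.19, 8.40 and 8.07 in controls, values that overlap. On the log2 scale this ratio differed by 0.12, mutant minus control, by 0.05 without control library 1 and by 0.08 without mutant library 3. The median log2 fold change was 0.51 for the blood and 0.31 for the lymphatic genes.

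With only the defining genes, the classes stood further apart. Pecam1, Cdh5, Tie1 and Kdr summed to 165, 145 and 220 CPM in mutant libraries and 94.9, 117 and 99.9 CPM in controls, a ratio of 1.7. Prox1, Flt4 and Mmrn1 summed to 15.8, 16.6 and 21.9 CPM in mutant libraries and 13.3, 15.8 and 14.5 CPM in controls, a ratio of 1.24. The endothelial over the lymphatic sum was 10.5, 8.76 and 10.1 in mutant libraries and 7.12, 7.44 and 6.88 in controls, with no overlap. Summing the defining genes alone was chosen as an alternative after the data were seen, and its ratio depends on the genes picked. Pecam1, Cdh5, Tie1 and Kdr had log2 fold changes of 0.67, 0.77, 0.80 and 0.84. Left out were blood genes near 0, such as Erg (-0.06), Vwf (-0.11), Eng (-0.03) and Ptprb (0.02). Genes with larger rises, such as Aplnr (1.296) and Robo4 (0.98), were left out as well.

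**Figure D3:**
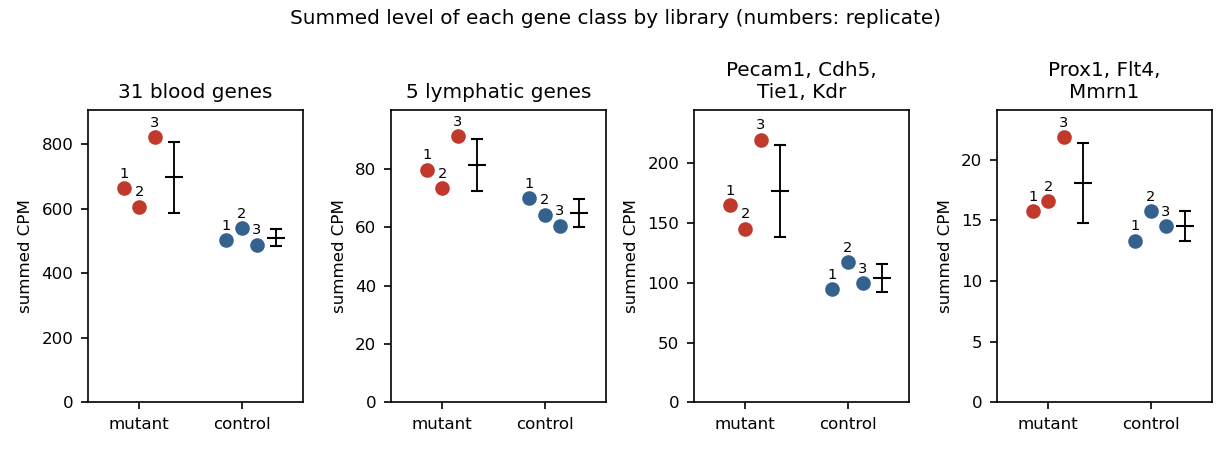
Summed CPM of the 31 blood genes, the 5 lymphatic genes and the defining genes of each class in 3 mutant (red, left) and 3 control (blue, right) libraries, with replicate numbers and mean and SD (n = 3 per genotype) beside them. Mutant replicate 3 is the highest library in every panel, and mutant replicate 1 meets control replicate 2 at 15.8 CPM in the sum of Prox1, Flt4 and Mmrn1.

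Per kilobase of exon, the scale on which levels of different genes can be compared, Sox18 led the list at 70.7 CPM per kb in mutant and 50.7 in control libraries. Eng followed at 22.2 in mutant and 22.7 in control libraries, then Pdpn at 21.0 and 17.7 and Cdh5 at 14.8 and 8.74. Kdr stood at 6.53 CPM per kb in mutant and 3.68 in control libraries, and Flt4, its lymphatic relative, at 0.472 and 0.361. Prox1 was at 1.43 CPM per kb in mutant and 1.16 in control libraries. Sox17 (0.538 and 0.350) and Sox7 (2.02 and 1.83) were far below Sox18. For scale, Pdgfrb, a gene of the mural cell list below, reached 41.7 CPM per kb in mutant and 43.6 in control libraries. Which cells made it was not tested. Exon lengths were taken from a later annotation than the one behind the counts.

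The libraries of a genotype did not carry these genes equally. Among mutants, replicate 3 was the highest for 27 of the 31 blood genes and 3 of the 5 lymphatic genes, and replicate 2 the lowest for 22 and 2. Among controls, replicate 2 was the highest for 17 blood genes. Relative to the control mean, the median log2 deviation of the blood genes was 0.38, 0.23 and 0.80 in mutant libraries 1 to 3 and -0.02, 0.10 and -0.05 in control libraries 1 to 3. For the lymphatic genes it was 0.32, 0.23 and 0.62 in mutant libraries and 0.02, 0.15 and -0.09 in controls. Without mutant library 3 the median log2 fold change was 0.35 for the blood and 0.22 for the lymphatic genes, and 7 blood genes were called.

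**Figure D4:**
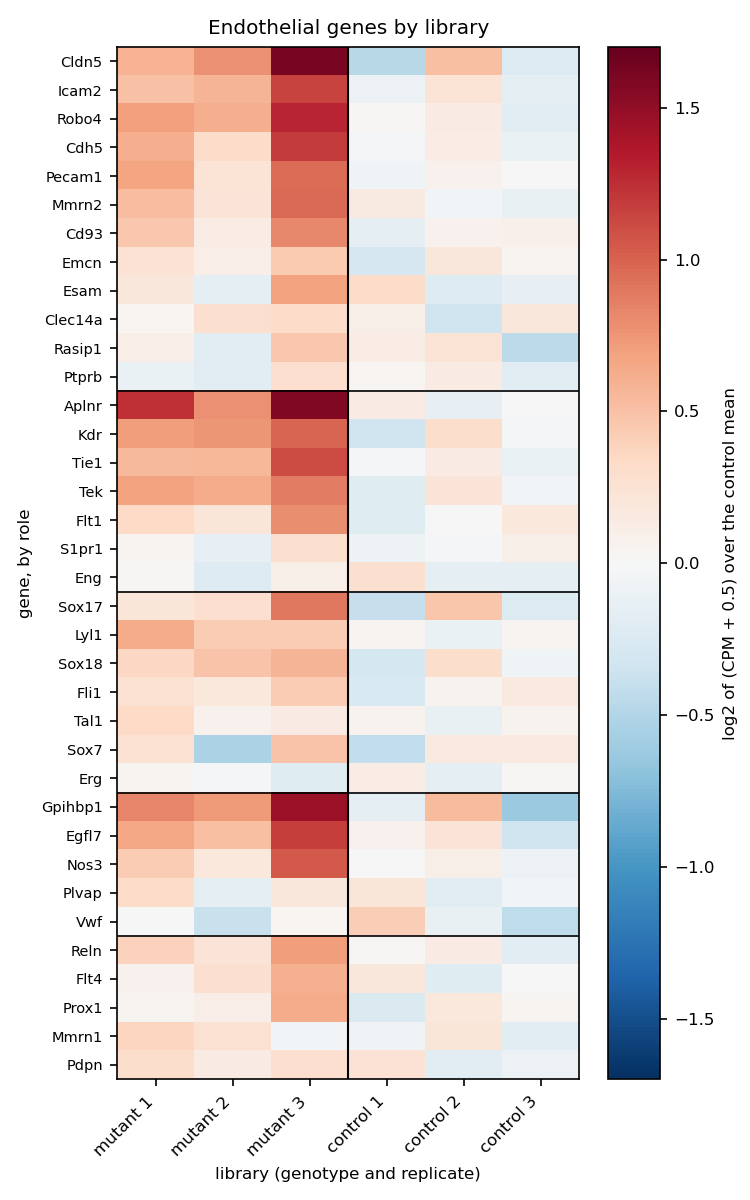
Log2 of (CPM + 0.5) over the control mean for the 36 endothelial genes (rows, by role) in 3 mutant (left) and 3 control (right) libraries. The column of mutant replicate 3 is the darkest red for most genes, up to Cldn5 and Aplnr, while Erg, Vwf, Eng and Ptprb stay pale across the mutant columns.

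Genes outside the list that are used as endothelial markers were mixed. Of 23 further genes listed for endothelium 4 rose and 1 fell, against 8.63% and 9.13% of all genes tested (median log2 fold change 0.21). Stab1, a scavenger receptor of sinusoidal endothelium and macrophages, had 109, 99.8 and 136 CPM in mutant libraries and 78.8, 72.7 and 73.9 CPM in controls (log2 fold change 0.61, edgeR adjusted p = 0.00352). Ushbp1 rose by 1.21 (edgeR adjusted p = 0.00858, not held without control library 3, 0.0501), while Calcrl, the receptor core for adrenomedullin, fell by 0.64 (edgeR adjusted p = 0.0136, not held without control library 3 or mutant library 3, at most 0.0529). Rises numbered 1 without control library 3 and 2 without control library 2 or mutant library 3. Falls numbered 3 without control library 1 and 0 without control library 3 or mutant library 3. In this and the following lists, counts with 1 library left out stand against 4.33% to 7.83% of all genes called higher. Genes called lower among all genes then numbered 753 to 1500, against 1372 with all libraries. The median was 0.10 without mutant library 3. Cd34 (mean 428 CPM in mutant and 474 in control libraries, log2 fold change -0.15) and Mcam (119 and 127, -0.09), picked with their values in view, were the most abundant. Neither was called, and Mcam is also in the mural cell list below. Ushbp1 stood at 7.31 and 3.21 CPM. How much of each gene came from endothelium was not tested.

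Genes listed for vessel subtypes changed in part. Of 7 tested arterial genes 2 rose and 1 fell, against 8.63% and 9.13% of all genes tested. DESeq2 called 1 higher and 2 lower. Falls numbered 2 without control library 1 or mutant library 1, and rises 0 without control library 3 or mutant library 1 or 3. Gja4, the arterial connexin, rose by 0.75 (edgeR adjusted p = 0.0412), Unc5b, a netrin receptor, rose by 0.58 (edgeR adjusted p = 0.0413), and Sema3g, an arterial semaphorin, fell by 0.36 (edgeR adjusted p = 0.012). None of the 3 calls held without mutant library 3, and those of Gja4 and Unc5b also without control library 3 or mutant library 1. Gja4 was lost as well with DESeq2 and without control library 2, and Unc5b without mutant library 2 (adjusted p up to 0.162 and 0.136). The median of 0.07 turned to -0.14 without control library 1 and to -0.12 without mutant library 1. In CPM per kb of exon, Unc5b (19.7 in mutant and 13.2 in control libraries) and Sema3g (16.1 and 20.7) stood above Cdh5 (14.8 and 8.74). Gja4 stood below it (3.05 and 1.83). Which cells made these transcripts was not tested.

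Of 5 capillary genes 2 rose and 1 fell, against 8.63% and 9.13% of all genes tested. There was 1 rise without control library 2 or mutant library 2 or 3. No fall was left without control library 2 or 3 or mutant library 1 or 2. Cd300lg, a capillary mucin-like receptor, had 9.33, 10.1 and 16.3 CPM in mutant libraries and 4.29, 5.20 and 4.42 CPM in controls (log2 fold change 1.37, edgeR adjusted p = 0.00252), and it was called in all 12 alternatives. Cd36, a fatty acid transporter also made by fat cells and macrophages, rose by 0.42 (edgeR adjusted p = 0.022, not held without control library 2 or mutant library 2 or 3), and Rgcc fell by 0.49 (edgeR adjusted p = 0.033, lost when any library but control library 1 was left out). Of 5 venous genes none was called by edgeR, DESeq2 or limma-voom, and 1 had an unadjusted p under 0.05. The same held for 5 genes of sprouting tip cells. That gene was Nr2f2 of veins and Esm1 of tip cells. Esm1, named with its values in view, had 1.34, 1.17 and 1.16 CPM in mutant libraries and 0.640, 0.839 and 0.704 CPM in controls (log2 fold change 0.75, edgeR adjusted p = 0.12). The most abundant were Ephb4 (log2 fold change 0.13) and Nr2f2 (0.22) of veins and Cxcr4 (-0.01) and Angpt2 (0.24) of tip cells. In CPM per kb, Ephb4 (33.8 in mutant and 30.9 in control libraries) and Cxcr4 (66.7 and 67.1) also stood above Cdh5. Nr2f2 (6.93 and 5.94) and Angpt2 (3.82 and 3.22) stood below it.

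Further lymphatic genes went both ways. Of 6 tested, 2 rose and 2 fell, against 8.63% and 9.13% of all genes tested. The median log2 fold change was -0.19, and -0.02 without control library 1. Lyve1, a hyaluronan receptor of lymphatic vessels and of perivascular macrophages, had 31.9, 42.2 and 44.2 CPM in mutant libraries and 13.6, 10.99 and 17.3 CPM in controls (log2 fold change 1.49, edgeR adjusted p = 0.0012). Maf, a factor of lymphatic endothelium and macrophages, had 121, 101 and 92.3 CPM in mutant libraries and 173, 196 and 220 CPM in controls (-0.91, edgeR adjusted p = 0.000869). Both were called in all 12 alternatives. Nrp2, a VEGF-C co-receptor also found on stromal cells, rose by 0.26 (edgeR adjusted p = 0.0318), and Foxc2, a factor of lymphatic valves, fell by 1.105 (edgeR adjusted p = 0.0435), each a call lost with any 1 library left out (at most 0.103 and 0.143). Foxc2, as the 4th called gene of the list, was named with its values in view.

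Ligands of the receptors showed no common direction. Of 13 tested, 2 rose and 2 fell, against 8.63% and 9.13% of all genes tested (median log2 fold change -0.18). Angptl1, an angiopoietin-like protein, had 116, 98.5 and 143 CPM in mutant libraries and 77.0, 70.4 and 71.3 CPM in controls (log2 fold change 0.71, edgeR adjusted p = 0.00457). Vegfd, a ligand of Flt4, had 35.2, 30.2 and 35.7 CPM in mutant libraries and 26.7, 24.3 and 25.5 CPM in controls (0.40, edgeR adjusted p = 0.0131), a call not held without control library 2 or mutant library 1 or 3 (at most 0.0626). Slit2, a secreted guidance cue, fell by 0.47 (edgeR adjusted p = 0.00666). Vegfa, Vegfc and Angpt1, picked with their values in view, stood at log2 fold changes of -0.21, -0.24 and -0.25, none of them a call (edgeR adjusted p = 0.129, 0.112 and 0.276). Bmp6, likewise picked, fell by 0.67 (edgeR adjusted p = 0.0179, not held without mutant library 2 or 3). Rises numbered 1 without control library 2 or mutant library 1 or 3. Falls numbered 3 without control library 1 and 1 without mutant library 2 or 3.

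Marker genes of several other cell types differed between the genotypes as well, and their part in the endothelial values was not tested. Counts of edgeR calls on all libraries in these lists stand against 8.63% of all genes called higher and 9.13% called lower. With 1 library left out, 4.33% to 7.83% of all genes were called higher. Of 9 skeletal muscle genes 8 rose, and their sum was 182 to 280.1 CPM in mutant libraries and 61.2 to 88.9 CPM in controls. Actc1, the most abundant, rose by 1.78 on the log2 scale (edgeR adjusted p = 0.00797). Of 7 keratinocyte genes 4 rose, with sums of 818 to 1027 CPM in mutant libraries and 440.1 to 701 CPM in controls, led in level by Krt5 (log2 fold change 0.80, edgeR adjusted p = 0.0313, not held without control library 3 or mutant library 1 or 3). Mutant library 3 had the highest sum of both lists, as it did of the endothelial genes. Keratinocyte rises numbered 1 without control library 3 or mutant library 3 and 2 without mutant library 1.

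Cells of the blood lineage, some of which live in tissue, share Pecam1, Vwf, Mmrn1, Tal1, Lyl1 or Fli1 with endothelium. Of 11 macrophage genes 2 rose, with sums of 395 to 483 CPM in mutant libraries and 276 to 484 CPM in controls. Mrc1, the most abundant, had a log2 fold change of 0.16. The 2, F13a1 and Fcgr3, became 5 without control library 1, 1 without control library 3, and 0 without control library 2 or mutant library 1 or 3. Of 8 mast cell genes 6 were tested, of which 3 rose and 1 fell, Kit being the most abundant over all libraries (log2 fold change -1.03, edgeR adjusted p = 0.0342, not held without control library 2 or 3 or mutant library 1). Cma1, the most abundant in mutant libraries, rose by 0.77. Mast cell sums were 110.1 to 128 CPM in mutant libraries and 83.1 to 99.97 CPM in controls. Of 4 tested genes of platelets and megakaryocytes 1, Pf4, rose (log2 fold change 1.29) and Itgb3 was the most abundant (-0.25), with sums of 130.3 to 139 CPM in mutant libraries and 108 to 133 CPM in controls. Of 2 tested erythroid genes Epor rose (0.82, edgeR adjusted p = 0.0192, not held without control library 3 or mutant library 3), and both rose without control library 2 or mutant library 2. Erythroid sums were 6.31 to 11.5 CPM in mutant libraries, against 3.20 to 4.28 CPM in controls. No gene of 4 tested leukocyte genes was called by edgeR, DESeq2 or limma-voom, with sums of 35.6 to 40.9 CPM in mutant libraries and 21.7 to 48.9 CPM in controls, Laptm5 being the most abundant (0.43). Of these 1 had an unadjusted p under 0.05, and 2 were called without control library 1.

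Of 11 mural cell genes, Kcnj8 and Abcc9 rose and none was called lower by edgeR, though 1 was called lower by limma-voom and 1 by edgeR without control library 3, and sums were 1288 to 1724 CPM in mutant libraries and 1499 to 1950 CPM in controls. Acta2, the most abundant over all libraries, had a log2 fold change of -0.44, and Notch3, the most abundant in mutant libraries, 0.33, neither of them a call. Of 10 fibroblast genes 1 rose and 2 fell, Pdgfra among them, with sums of 56871 to 70523 CPM in mutant libraries and 69292 to 77171 CPM in controls, led by Col1a1 (-0.26), and 4 fell without mutant library 1 while 2 rose without control library 2. Of 7 Schwann cell genes 2 fell, and 1 without mutant library 3, the most abundant being Ncam1 (-0.34), and of 6 melanocyte genes 1 fell, with Dct the most abundant (-0.42). Schwann sums were 308 to 328 CPM in mutant libraries and 389 to 430 CPM in controls. Melanocyte sums were 137 to 262 CPM in mutant libraries and 244 to 376 CPM in controls. Of 5 tested fat cell genes edgeR and limma-voom called none, 0 had an unadjusted p under 0.05 and DESeq2 called 2 higher, and the median log2 fold change was 1.67, and 0.50 without mutant library 2. Plin1, the most abundant over all libraries, stood at -0.15, and Cfd, the most abundant in mutant libraries, at 4.39. Fat cell sums ran from 49.2 to 285 CPM in mutant libraries and from 56.8 to 104 CPM in controls, with the highest in mutant library 2.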

How the data were processed

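RNA sequencing libraries of sorted cells were available as 6 files of deposited read counts per Ensembl gene, made by the authors. The submitters' processing notes name HTSeq 0.5.3, TopHat2 2.0.4, cutadapt 1.1, FastQC and DESeq2 with build mm9, and give the tools no roles. The sources used here do not give strand use. The 5 rows that name no gene, 36.9% to 41.7% of reads, were left out. Groups and replicate numbers came from the titles.

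Counts were filtered with filterByExpr (minimum count 10, minimum total 15), scaled by TMM and tested with edgeR 4.0.16 (R 4.3.3), quasi-likelihood with robust fitting, group as the only term. The procedure was tested on simulated data. limma 3.58.1 and DESeq2 1.42.0 served as alternatives. With 3 libraries per group the smallest two-sided exact permutation p is 0.1, and no p is given for sums over chosen genes. Members, lists and alternatives were chosen with earlier results of these data known. All members were named. Other endothelial lists gave their 3 called genes of smallest p or 2 most abundant genes, and lists of other cells their most abundant gene. Symbols matched for 86.6% of gene rows. Of the lists, Ccl21a matched none.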

Additional observations from a re-analysis of the deposited data

How the results depend on the processing

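Among 12 alternatives (DESeq2 size factors, total count scaling, no filter, DESeq2, limma-voom, replicate number as a block, and each library left out), no blood or lymphatic gene was called lower, and the median log2 fold change stayed positive, at 0.35 to 0.60 for blood and 0.22 to 0.41 for lymphatic genes. Total count scaling was added after the data were seen. With 1 library left out, blood genes called higher numbered 5 to 13 and lymphatic genes 0 to 2, genes called higher among all genes 658 to 1199 and lower 753 to 1500, and genes of the other lists 20 to 39 higher and 8 to 16 lower (34 and 13 with all libraries). With no filter the other lists had 21 genes lower. On defining genes alone the log2 contrast of blood over lymphatic sums, mutant minus control, was 0.45 in place of 0.12, and that over all members ran from 0.05 to 0.17 with 1 library left out. The cause of these shifts was not tested. The replicate numbers shared by the genotypes showed no visible pairing of the libraries. Deviations from the group mean correlated at -0.13 to 0.14 between equal numbers, and not every library correlated best with its own number. With 3 libraries per genotype these correlations cannot exclude a pairing. As a replicate block the numbers gave 1328 genes higher and 1439 lower, 11 blood genes higher (Cd93, Flt1 and Sox18 gained, Gpihbp1 and Lyl1 lost) and 0 lymphatic genes higher (Reln lost). Of the 36 members, 5 kept their call in every alternative, 6 lost it in at least 1, 8 gained one in at least 1, and 17 were called in none. Shared litters are not recorded in the labels, so p-values measure the spread between these libraries, and depth limits the least abundant members, such as Tal1 with 10 to 21 counts per library.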
